A study of Mus musculus with 4 samples.

Results

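The genes described here are those of cholesterol and fatty acid synthesis, as measured in CT26, a cultured line from a mouse carcinoma of the colon. They were chosen by name, as a list of 33 genes that runs from the mevalonate branch through the sterol steps to the fatty acid enzymes, together with the factors that control them. A gene was read from a probe set whose annotation names it alone, and from the brightest such probe set where there were several. This gave 31 of the 33 genes, out of 22180 named genes in all. Idi1 and Scd2 had no value, since the probe set of each also names a second gene. Of the 31, 22 belong to cholesterol synthesis and its control and 9 to fatty acid synthesis.

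Cultures of 4 kinds were measured, each on 1 array. One was CT26 treated for 24 h with 5 µM Senexin B, a small-molecule inhibitor of the Mediator kinases CDK8 and CDK19, and its control was CT26 treated for 24 h with the solvent DMSO. The other pair was the line CT26-shCDK8, named for a short hairpin RNA against Cdk8, and its control CT26-pLKO.1, which carries the vector used for such hairpins. The labels do not say whether either line is a clone or give the hairpin's target site, and their own characteristics name neither drug nor solvent. All groups share the CT26 background and the same culture medium with serum, a source of outside lipid. With 1 array a group there was no spread between replicates and no test, so each value below is a level on 1 array or a difference between 2 arrays, in log2 units.

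Cells make cholesterol from acetyl-CoA by way of mevalonate and squalene, and make fatty acids from the same acetyl-CoA by way of malonyl-CoA. Many of these enzymes are under the control of the SREBP transcription factors, the products of Srebf1 and Srebf2. When sterols are scarce, the escort protein SCAP carries SREBP from the endoplasmic reticulum to the Golgi, where it is cut and released, and when sterols are plentiful the INSIG proteins hold it back. SREBP is known to bind promoters together with the factors NF-Y and SP1.

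Promoters are shown for the 6 genes that were 1.5-fold or more apart in either comparison below, and for Hmgcs1. Of the 25 measured genes with a window, Hmgcs1 alone holds the sterol element searched for. Each window runs from 250 bases before the gene's start to 50 bases after it, in RefSeq's table for GRCm38.p6, read 5′ to 3′ on the gene's strand. The Hmgcs1 window lies at chr13:119690101-119690400, plus strand. Nsdhl at chrX:72918271-72918570, plus strand and Fads2 at chr19:10101454-10101753, minus strand were higher with Senexin B than with DMSO, and Fasn at chr11:120824498-120824797, minus strand was lower. Acss2 at chr2:155517793-155518092, plus strand was higher in shCDK8 than in pLKO.1, and Elovl5 at chr9:77917115-77917414, plus strand and Ebp at chrX:8193463-8193762, minus strand were lower. Capitals mark 4 motifs searched on both strands: TCACNCCAC, a form of the sterol regulatory element, the E-box CACGTG, the NF-Y box CCAAT and the GC box GGGCGG.
Hmgcs1: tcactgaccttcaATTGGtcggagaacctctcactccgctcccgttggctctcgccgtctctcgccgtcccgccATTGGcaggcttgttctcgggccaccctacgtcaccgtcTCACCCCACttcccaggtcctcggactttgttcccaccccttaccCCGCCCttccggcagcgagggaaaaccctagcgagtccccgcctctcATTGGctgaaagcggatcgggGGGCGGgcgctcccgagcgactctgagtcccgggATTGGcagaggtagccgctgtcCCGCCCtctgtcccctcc
Nsdhl: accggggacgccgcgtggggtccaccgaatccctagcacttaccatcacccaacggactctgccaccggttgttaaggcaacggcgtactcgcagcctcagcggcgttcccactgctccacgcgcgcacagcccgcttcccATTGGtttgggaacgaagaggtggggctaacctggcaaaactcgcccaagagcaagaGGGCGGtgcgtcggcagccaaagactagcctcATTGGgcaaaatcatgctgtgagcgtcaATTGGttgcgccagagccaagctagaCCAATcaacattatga
Ebp: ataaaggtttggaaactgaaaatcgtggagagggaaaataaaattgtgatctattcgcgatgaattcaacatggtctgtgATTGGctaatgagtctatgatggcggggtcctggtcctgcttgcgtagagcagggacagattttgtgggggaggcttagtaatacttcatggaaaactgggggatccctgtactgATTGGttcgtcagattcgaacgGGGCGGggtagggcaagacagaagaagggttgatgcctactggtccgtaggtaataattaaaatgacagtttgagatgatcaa
Acss2: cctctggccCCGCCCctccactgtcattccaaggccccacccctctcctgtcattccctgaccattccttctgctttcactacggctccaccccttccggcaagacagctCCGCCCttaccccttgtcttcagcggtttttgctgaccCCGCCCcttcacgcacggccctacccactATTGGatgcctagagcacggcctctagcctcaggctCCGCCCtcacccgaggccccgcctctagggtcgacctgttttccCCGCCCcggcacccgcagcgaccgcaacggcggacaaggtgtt
Fasn: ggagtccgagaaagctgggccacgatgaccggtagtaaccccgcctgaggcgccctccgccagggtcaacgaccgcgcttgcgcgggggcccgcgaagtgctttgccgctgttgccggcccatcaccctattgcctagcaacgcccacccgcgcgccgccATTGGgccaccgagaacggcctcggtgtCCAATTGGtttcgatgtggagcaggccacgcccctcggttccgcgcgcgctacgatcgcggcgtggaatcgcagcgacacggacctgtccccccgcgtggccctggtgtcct
Fads2: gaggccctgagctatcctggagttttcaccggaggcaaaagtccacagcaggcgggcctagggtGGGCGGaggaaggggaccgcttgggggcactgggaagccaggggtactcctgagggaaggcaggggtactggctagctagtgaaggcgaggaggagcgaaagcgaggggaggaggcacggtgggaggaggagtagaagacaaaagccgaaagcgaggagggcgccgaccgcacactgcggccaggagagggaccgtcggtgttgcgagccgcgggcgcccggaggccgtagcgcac
Elovl5: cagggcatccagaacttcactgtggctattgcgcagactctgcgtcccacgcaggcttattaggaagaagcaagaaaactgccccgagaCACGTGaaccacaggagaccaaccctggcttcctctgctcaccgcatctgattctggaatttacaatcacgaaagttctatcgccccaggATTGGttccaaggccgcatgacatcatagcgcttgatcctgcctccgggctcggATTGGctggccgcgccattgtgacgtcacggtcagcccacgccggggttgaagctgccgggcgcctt

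The Hmgcs1 window alone held the sterol element, 137 bases before the start, with 4 NF-Y boxes and 3 GC boxes beside it. Nsdhl also held 4 NF-Y boxes, of which 2 lay after the start, and 1 GC box. Fads2 held 1 GC box and no other motif. Fasn had 3 NF-Y boxes, 2 of which overlap by 2 bases, the single overlap in the windows printed here. In the Elovl5 window lay 1 E-box and 2 NF-Y boxes, and in that of Ebp 2 NF-Y boxes and 1 GC box. Acss2 held 5 GC boxes and 1 NF-Y box.

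RefSeq's table had a promoter for 25 of the 31 measured genes, 18 for cholesterol and 7 for fatty acid synthesis. It had none for Fdps, Fdft1, Sqle, Stard4, Scd1 and Fads1, so no motif was searched for in these. A gene was counted where any of its windows held the motif. The table holds 32851 windows for 27025 genes. Some genes, among them Insig2, Dhcr7 and Srebf1, have several, and the shares were not adjusted for this. The NF-Y box stood in 17 of the 18 cholesterol genes (94.4%), in 4 of the 7 fatty acid genes (57.1%), in 41.9% of 11151 expressed genes and in 41.1% of all 27025 genes. Shares for the GC box were 94.4%, 42.9%, 64.2% and 38.2% in that order. The E-box was found in 5 cholesterol genes (27.8%), namely Hsd17b7, Insig1, Dhcr7, Sc5d and Scap, and in Elovl5 among the fatty acid genes (14.3%), beside 11.1% of expressed and 8.09% of all genes. The spelled sterol element was in 1.46% of expressed and 1.44% of all genes. A match describes the letters only, and no match says only that these letters are not in the window.

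**Figure D1:**
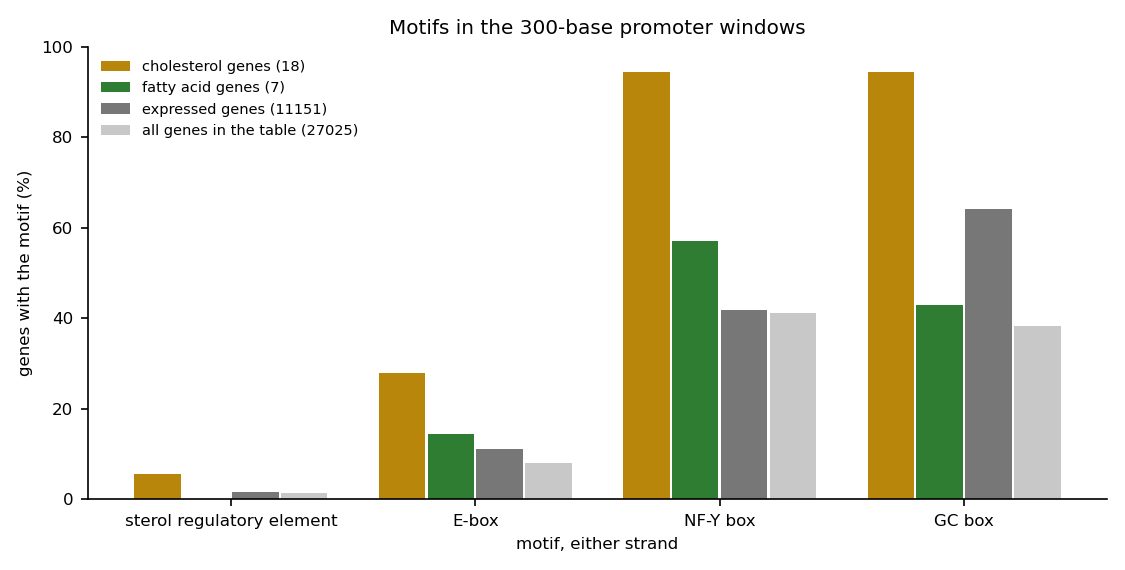
Share of genes (vertical axis, percent) with each of 4 motifs on either strand of a 300-base promoter window, for cholesterol genes (18), fatty acid genes (7), expressed genes (11151) and all genes in the table (27025). The NF-Y box bar of the cholesterol genes stands at 94.4%, beside 41.9% for expressed genes.

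All 31 measured genes passed the filter for expression, a highest value of at least 5.98 on the log2 scale, a limit set at percentile 40 over the gene values and met by 14272 genes. Their levels ran from 6.89 to 11.77. The hairpin's target was read first: Cdk8 stood at 9.07 in shCDK8 and 10.79 in pLKO.1, and at 10.58 with Senexin B and 10.69 with DMSO. Its difference between shCDK8 and pLKO.1 was -1.72, or 3.31-fold lower, and its paralog Cdk19 differed by 0.19. Of 8 markers of colon epithelium 5 reached the limit. For shCDK8 minus pLKO.1 4 of these 5 were above 0, with a median of 0.036 and Cdx2 at 0.41, and the fifth, Krt20, was at -1.44. For Senexin B minus DMSO 2 of the 5 were above 0, with a median of -0.0066. The epithelial adhesion gene Epcam lay under the limit on all 4 arrays. All 5 mesenchymal markers were expressed, with medians of 11.01 with Senexin B, 10.80 with DMSO, 10.57 in shCDK8 and 10.91 in pLKO.1. For Senexin B minus DMSO 4 of them were above 0, with a median of 0.23, and Pdgfra, at 1.24 from DMSO and 1.10 from pLKO.1, was farther from 0 than any of the 31 genes in the same differences. For shCDK8 minus pLKO.1 3 of the 5 were above 0. Of the other lists 2 of 5 hepatocyte markers and 1 of 4 immune markers, Cd68, reached the limit. Fat cells are rich in these enzymes, so 5 of their markers were read too. Adipoq, Lep and Cidec were under the limit on every array, Plin1 was close to it at 6.03 to 6.19, and Fabp4, a fatty acid binding protein, stood at 7.24 with Senexin B and at 5.21 with DMSO, 5.38 in shCDK8 and 5.34 in pLKO.1. The part of cells with these markers in the results below was not tested. In cultures, more cells with a transcript and more transcript per cell cannot be told apart.

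**Figure D2:**
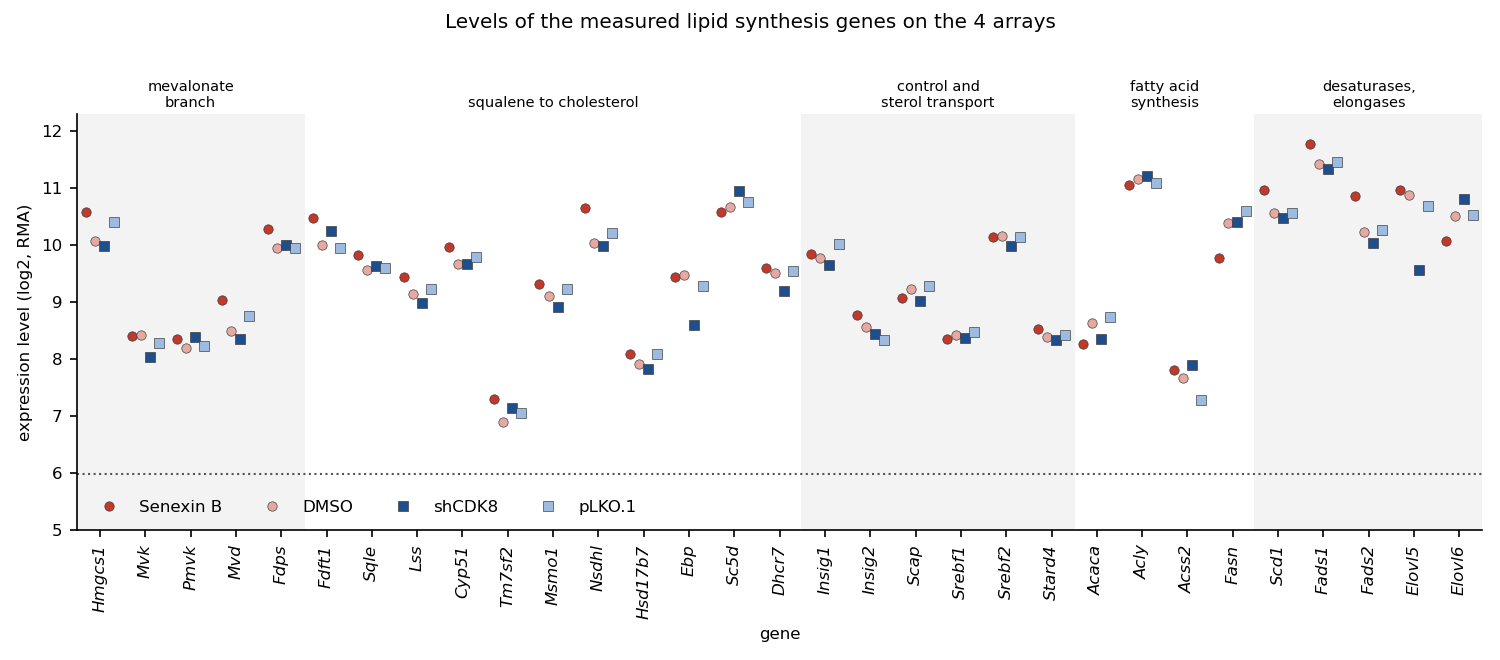
Expression level (vertical axis, log2) of the 31 measured genes, in pathway order along the horizontal axis, on the Senexin B, DMSO, shCDK8 and pLKO.1 arrays, 1 point per array. The dotted line is the expression limit of 5.98, and every gene lies above it.

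The first comparison asked how cells under the Mediator kinase inhibitor differed from solvent-treated cells. With Senexin B most cholesterol genes were higher, and the fatty acid genes lay on both sides, with Scd1, Fads1 and Fads2 higher and Fasn, Acaca and Elovl6 lower. Of the 22 cholesterol genes 16 were above 0, with a median difference of 0.20, beside -0.028 and 44.8% above 0 over all expressed genes. A difference of 0.322 or more, which is 25% more signal, is counted from here on. Among all 31 genes 8 were higher by that much, where 9.21% of expressed genes were. As many as 3 were lower by that much, which is near the 8.99% of expressed genes. With the trend of the difference on the mean level removed, 12 were higher and 2 lower. The shares of expressed genes after that step were not computed. At 1.5-fold the counts were 2 higher and 1 lower, beside 2.35% and 1.65%. Genes at these levels were more often lower than higher on the Senexin B array: the 8683 expressed genes with a mean between 7.10 and 11.50 had a median of -0.075, with 35.7% above 0. Of these, 6.5% were higher and 10.9% lower by 0.322 or more.

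Early in the pathway, Hmgcs1, the HMG-CoA synthase, was at 10.58 with Senexin B and 10.07 with DMSO, a difference of 0.50. It stood at 9.99 in shCDK8 and 10.41 in pLKO.1, so that the Senexin B array was highest but pLKO.1 lay close behind. Mvd, the mevalonate diphosphate decarboxylase, was 0.54 higher with Senexin B, at 9.04 against 8.50 with DMSO, and read 8.36 in shCDK8 and 8.76 in pLKO.1. Fdps, which makes farnesyl diphosphate, was 0.319 higher (10.28 with Senexin B, 9.96 with DMSO), just short of 0.322, and its other arrays were at 10.00 in shCDK8 and 9.94 in pLKO.1. The phosphomevalonate kinase gene Pmvk was at 0.15 and the mevalonate kinase gene Mvk at -0.017.

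Further down, the largest difference was that of Nsdhl, a sterol dehydrogenase that helps remove methyl groups from lanosterol. It stood at 10.66 with Senexin B and 10.04 with DMSO, 1.53-fold higher (0.61), and at 9.98 in shCDK8 and 10.22 in pLKO.1. Of all expressed genes 3.48% were at least as far from 0. Squalene synthase, Fdft1, was at 10.49 with Senexin B and 10.00 with DMSO, a difference of 0.48, beside 10.26 in shCDK8 and 9.95 in pLKO.1. Tm7sf2, a sterol reductase, was 0.41 higher, at 7.30 with Senexin B and 6.89 with DMSO, and read 7.15 in shCDK8 and 7.05 in pLKO.1. On each of these 3 genes the Senexin B array was the highest of the 4.

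Smaller differences in the same direction were seen for the lanosterol synthase gene Lss (0.31), the lanosterol demethylase gene Cyp51 (0.29), the squalene epoxidase gene Sqle (0.27), the methylsterol oxidase gene Msmo1 (0.21) and the ketosteroid reductase gene Hsd17b7 (0.18). Against pLKO.1 several were smaller, with Cyp51 at 0.17, Msmo1 at 0.086 and Hsd17b7 at 0.0042. The last steps differed least, with the final reductase gene Dhcr7 at 0.089, the sterol isomerase gene Ebp at -0.036 and the desaturase gene Sc5d at -0.082. In the branch from squalene to cholesterol 9 of 11 genes were above 0, with a median of 0.27, and in the mevalonate branch 4 of 5, with a median of 0.32.

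The control genes had a median of 0.027 against DMSO, with 3 of 6 above 0 and none 0.322 or more apart. Against pLKO.1 their median was -0.064, with Insig2 past the threshold at 0.44 and Insig1 at -0.18. Srebf2, the gene of the SREBP that acts chiefly on cholesterol synthesis, stood at 10.14 with Senexin B and 10.16 with DMSO. Srebf1, whose product acts chiefly on fatty acid synthesis, was at 8.34 with Senexin B and 8.42 with DMSO. Insig1, itself a known SREBP target, differed by 0.068 and Insig2 by 0.22, and Stard4, a carrier of sterols between membranes, by 0.14. Scap was at -0.16 on its brighter probe set and at 0.32 on a dimmer one, so its direction is not settled.

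The 4 genes of fatty acid synthesis had a median of -0.24 with Senexin B, with 3 below 0, and the 5 desaturases and elongases a median of 0.34, with 4 above 0. Fasn, the fatty acid synthase, was at 9.77 with Senexin B and 10.39 with DMSO, 1.53-fold lower (-0.62), while shCDK8 read 10.40 and pLKO.1 10.60. Acaca, the acetyl-CoA carboxylase that supplies malonyl-CoA, was at 8.26 with Senexin B and 8.64 with DMSO (-0.38), and at 8.36 in shCDK8 and 8.73 in pLKO.1. Elovl6, which lengthens saturated and monounsaturated chains, was at 10.08 with Senexin B and 10.52 with DMSO (-0.44), and at 10.81 in shCDK8 and 10.54 in pLKO.1. For all 3 the Senexin B array was the lowest of the 4. The genes of the acetyl-CoA sources were at -0.094 for Acly and 0.14 for Acss2, and Acss2 was at 0.53 against pLKO.1.

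The measured fatty acid desaturases of the list, Fads2, Scd1 and Fads1, were higher with Senexin B. Scd3, read in another list at the expression limit, was not. Fads2, the desaturase at the entry to polyunsaturated fatty acid synthesis, had the largest positive difference of the 31 genes, at 10.86 with Senexin B and 10.23 with DMSO (0.63, or 1.54-fold), with 10.04 in shCDK8 and 10.26 in pLKO.1. Scd1, which makes monounsaturated fatty acids, was at 10.97 with Senexin B and 10.56 with DMSO (0.41), and at 10.48 in shCDK8 and 10.57 in pLKO.1. Fads1, the partner of Fads2 further along the same route, was at 11.77 with Senexin B and 11.43 with DMSO (0.34), and at 11.34 in shCDK8 and 11.46 in pLKO.1. On these genes the control arrays differed by at most 0.032 from each other. Elovl5, which lengthens polyunsaturated chains, was 0.095 higher than with DMSO and 0.28 higher than in pLKO.1. The median of the 9 fatty acid genes was 0.095, with 3 genes 0.322 or more above 0 and 3 as far below it.

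**Figure D3:**
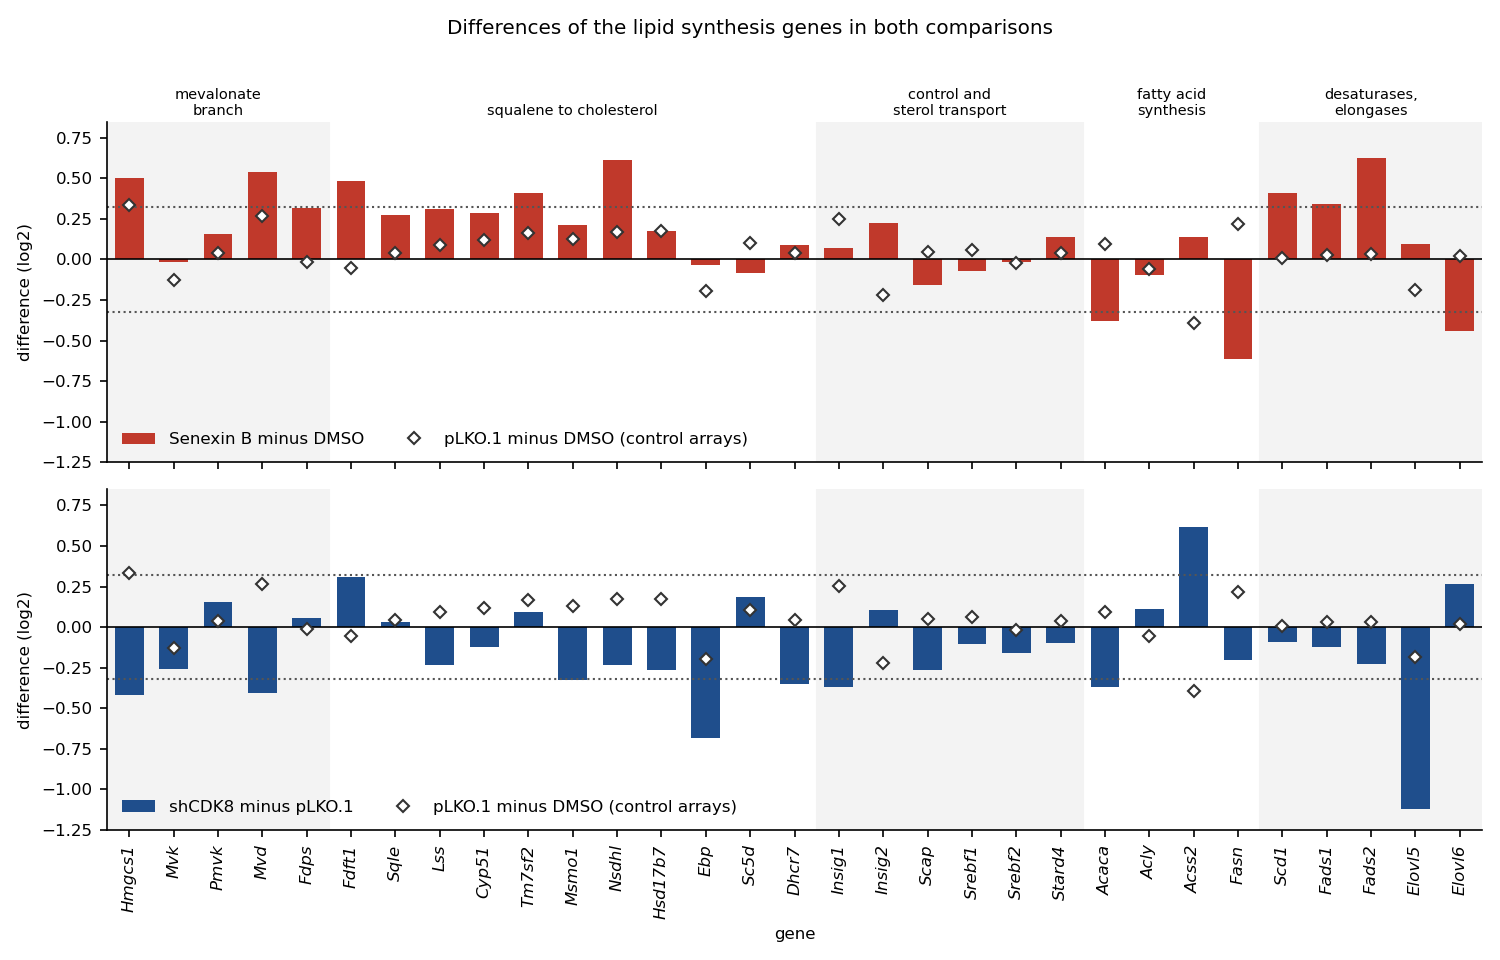
Difference in log2 level (vertical axis) of each gene for Senexin B minus DMSO (upper panel, red bars) and shCDK8 minus pLKO.1 (lower panel, blue bars), with the control arrays, pLKO.1 minus DMSO, as diamonds and the threshold of 0.322 as dotted lines. In the upper panel Nsdhl (0.61) and Fads2 (0.63) reach highest and Fasn (-0.62) lowest, and in the lower panel Elovl5 reaches -1.12.

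The control arrays differed from each other as well. For pLKO.1 minus DMSO 16 of the 22 cholesterol genes were above 0, where 44.3% of expressed genes were, with a median of 0.054. Among the 31 genes 1 was higher by 0.322 or more, Hmgcs1 (0.33), where 4.03% of expressed genes were, and 1 lower, Acss2 (-0.39), where 5.05% were. This difference shares its DMSO array with the first comparison. With pLKO.1 in place of DMSO, the median of the cholesterol genes for Senexin B was 0.14, and Hmgcs1 stood at 0.17, Mvd at 0.27 and Tm7sf2 at 0.25. Against pLKO.1 7 of the 31 genes were 0.322 or more higher with Senexin B, where 10.1% of expressed genes were, and 3 lower, where 8.74% were. The sign turned for 4 of the 31, Mvk, Ebp, Insig1 and Srebf2. Past 0.322 on the higher side against both controls were 4 genes, Fdft1, Nsdhl, Scd1 and Fads2, and on the lower side 3, Acaca, Fasn and Elovl6. Of expressed genes 5.48% and 4.67% met the same conditions.

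The other comparison set the hairpin line against the vector line, to see what less Cdk8 transcript goes along with. Here most cholesterol genes lay on the lower side, and of the whole list Elovl5 and Ebp were the farthest below 0. Of the 22 cholesterol genes 15 were below 0, with a median of -0.20, beside 0.0038 over all expressed genes, of which 50.8% were above 0. In the whole list 8 genes were lower by 0.322 or more, where 7.68% of expressed genes were, and 1 was higher, where 8.81% were. At 1.5-fold 2 genes were lower and 1 higher, beside 1.85% and 1.67%.

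Elovl5 was at 9.57 in shCDK8 and 10.69 in pLKO.1, 2.18-fold lower (-1.12), and at 10.97 with Senexin B and 10.88 with DMSO. The other 3 arrays thus lay within 0.28 of each other, and 0.336% of expressed genes were at least as far from 0. Ebp, the sterol isomerase, was at 8.60 in shCDK8 and 9.29 in pLKO.1, 1.60-fold lower (-0.68), and at 9.44 with Senexin B and 9.48 with DMSO. For Ebp 2.21% of expressed genes were at least as far from 0. Against the DMSO array Elovl5 and Ebp were at -1.31 and -0.88. They were the only members lower by 0.322 or more in shCDK8 against both controls, a condition that 4.84% of expressed genes met. No member was that much higher against both, beside 5.19% of expressed genes.

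The 6 other genes lower by 0.322 or more were Hmgcs1 (-0.42), Mvd (-0.40), Insig1 (-0.37), Acaca (-0.37), Dhcr7 (-0.35) and Msmo1 (-0.33). For several of them the shCDK8 array lay nearer to DMSO than to pLKO.1. Insig1, for example, was at 9.65 in shCDK8 and 10.02 in pLKO.1, with 9.84 for Senexin B and 9.77 for DMSO. Against DMSO the shCDK8 array gave -0.087 for Hmgcs1, -0.14 for Mvd and -0.12 for Insig1. Dhcr7 was at 9.20 in shCDK8 and 9.55 in pLKO.1, and at 9.51 with DMSO, against which the difference was -0.31. The cholesterol median in shCDK8 was -0.091 when DMSO took the place of pLKO.1. Of the 31 genes 3 were then 0.322 or more lower, Mvk, Ebp and Elovl5, no larger a share than the 11.0% of expressed genes. The count higher was 0, where 9.81% of expressed genes were. The sign turned for 2, Insig2 and Fasn.

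A few sterol genes were not lower in shCDK8. Fdft1 was at 10.26 in shCDK8 and 9.95 in pLKO.1 (0.31), Sc5d at 10.95 in shCDK8 and 10.77 in pLKO.1 (0.18), and Pmvk at 0.15. Tm7sf2 (0.094), Fdps (0.055) and Sqle (0.030) were close to 0. Remaining sterol genes on the lower side were Hsd17b7 (-0.27), Mvk (-0.26), Lss (-0.23), Nsdhl (-0.23) and Cyp51 (-0.12). Against DMSO Hsd17b7 was at -0.094, Nsdhl at -0.060 and Cyp51 at -0.0068. The control genes other than Insig1 were at -0.26 for Scap, -0.16 for Srebf2, -0.10 for Srebf1, -0.099 for Stard4 and 0.10 for Insig2. The dimmer Scap probe set was at 0.026, so the sign for Scap is not settled here either.

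Among the fatty acid genes Acss2, which makes acetyl-CoA from acetate, was the one member 0.322 or more higher in shCDK8, at 7.90 against 7.28 in pLKO.1 (0.62, or 1.53-fold). Its pLKO.1 value was the lowest of the 4 arrays, with 7.81 for Senexin B and 7.67 for DMSO, and against DMSO the shCDK8 difference was 0.22. Elovl6 was 0.27 higher in shCDK8 than in pLKO.1 and Acly 0.11 higher. Fasn was at -0.20, and at 0.013 against DMSO, and the desaturases at -0.23 for Fads2, -0.12 for Fads1 and -0.092 for Scd1. The median of the 9 genes was -0.12.

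**Figure D4:**
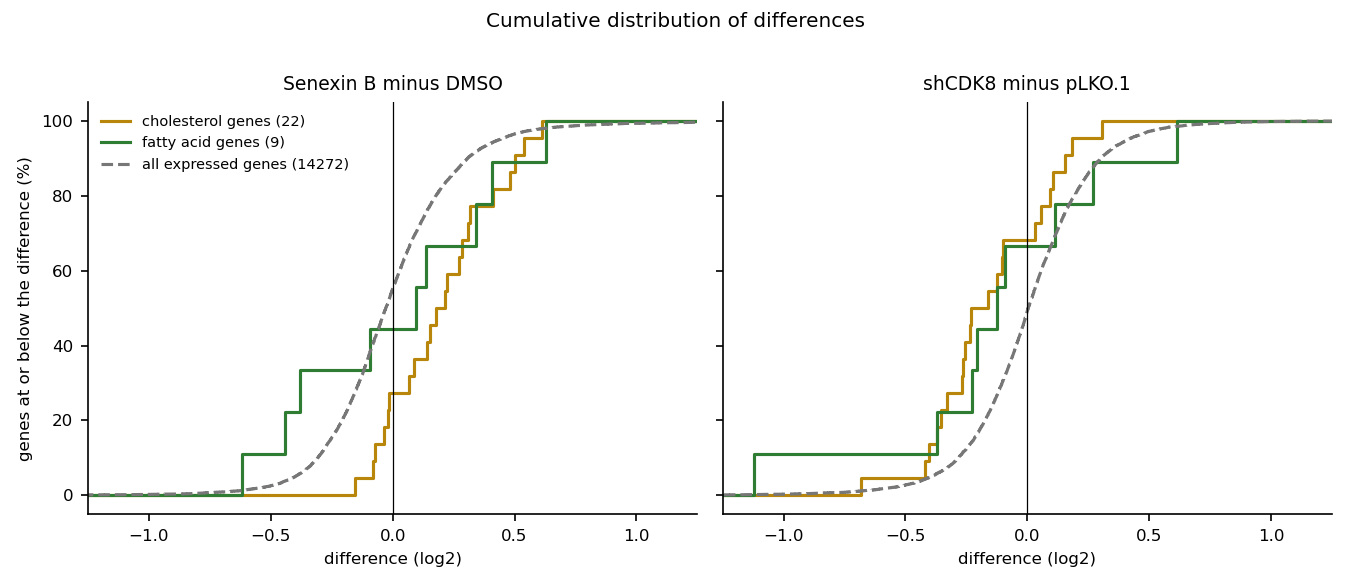
Cumulative share of genes (vertical axis, percent) at or below each log2 difference (horizontal axis) for Senexin B minus DMSO (left) and shCDK8 minus pLKO.1 (right), for cholesterol genes (22), fatty acid genes (9) and all expressed genes (14272, dashed). The cholesterol curve crosses 50% near 0.20 on the left and near -0.20 on the right, where all expressed genes cross near 0.

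The comparisons have no array in common, so the genes can be set side by side. Of the 31 genes 14 (45.2%) were above 0 for Senexin B and below 0 for shCDK8, against 20.7% of all expressed genes. Among them were Hmgcs1, Mvd, Nsdhl, Lss, Msmo1, Fads1, Fads2 and Scd1. Taken singly, 21 of the 31 were above 0 for Senexin B and 21 below 0 for shCDK8, and the joint count follows largely from these. A higher pLKO.1 or lower DMSO value adds to this pattern, and 22 of the 31 were above 0 for pLKO.1 minus DMSO. The part of the control arrays in it was not tested. In the opposite corner were 3 genes, Sc5d, Acly and Elovl6. Higher in both were 7, with Fdft1 (0.48 for Senexin B and 0.31 for shCDK8) among them, and lower in both were 7, with Acaca (-0.38 for Senexin B and -0.37 for shCDK8) the one past 0.322 in both. Across the 31 genes Pearson's r of the differences was 0.0021 and across all expressed genes 0.0078, given as a description, since genes of 1 array share that array. Ranked over the 4 arrays, the Senexin B array was highest for 14 of the 22 cholesterol genes (63.6%) and the shCDK8 array lowest for 14 (63.6%), where over all expressed genes the shares were 26.9% and 28.8%.

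**Figure D5:**
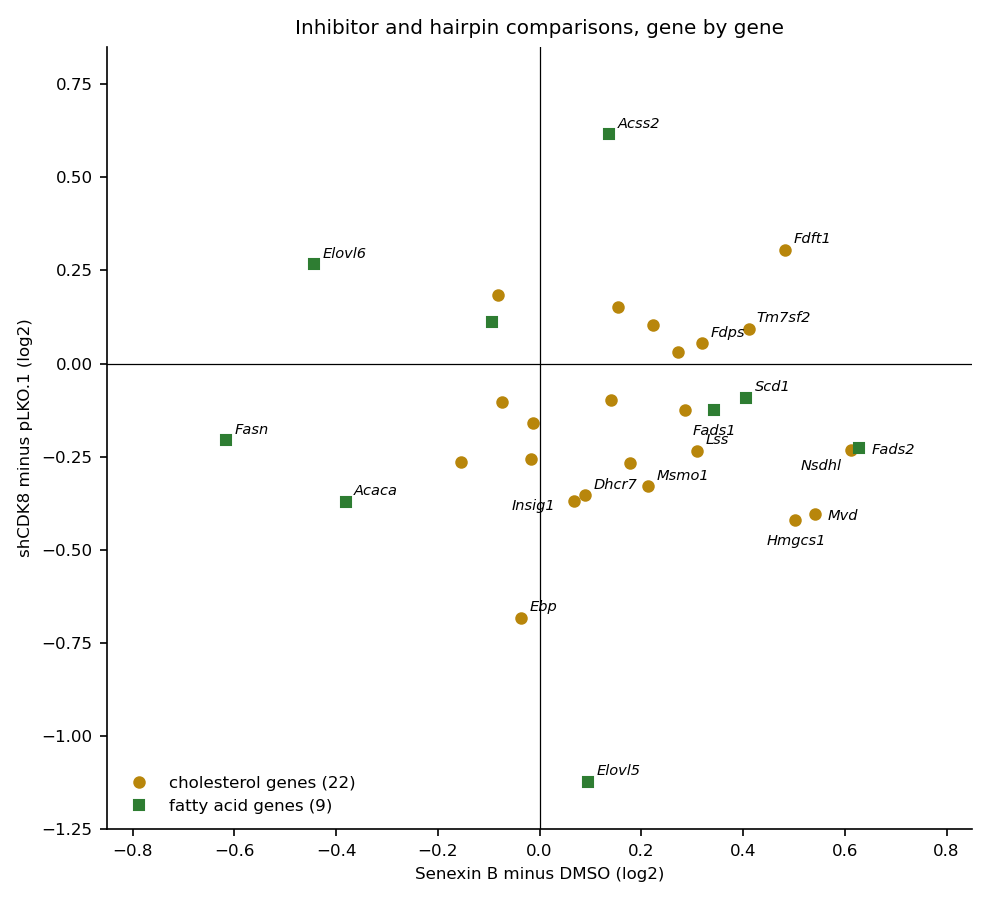
Each of the 31 genes by its log2 difference for Senexin B minus DMSO (horizontal axis) and shCDK8 minus pLKO.1 (vertical axis), with cholesterol genes as circles and fatty acid genes as squares. The lower right part of the plot holds 14 genes, among them Nsdhl, Mvd and Hmgcs1, and Elovl5 lies lowest at -1.12.

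Other genes of lipid metabolism were read from 7 lists. Beside their counts, 9.21% of expressed genes were higher and 8.99% lower by 0.322 or more with Senexin B. In shCDK8 these shares were 8.81% and 7.68%. In the list for sterol uptake, storage and efflux, 3 of 10 expressed genes were higher by 0.322 or more with Senexin B and 1 was lower. Vldlr, a lipoprotein receptor, was at 10.61 with Senexin B, 9.76 with DMSO, 9.83 in shCDK8 and 9.73 in pLKO.1, a difference of 0.85 from DMSO. Npc2, a lysosomal sterol carrier, was 0.66 higher, at 11.14 against 10.48 with DMSO. In shCDK8 the list's largest differences from pLKO.1 were in Nr1h3, the sterol-sensing receptor LXR alpha (0.49), and Abca1, a known target of it that exports cholesterol (0.43), and no gene was lower by 0.322. Abca1 was at -0.38 for Senexin B minus DMSO. Abcg1, of the same list, was opposite to Abca1 in both, at -0.24 for shCDK8 minus pLKO.1 and 0.47 for Senexin B minus DMSO. Of the 10 genes 6 were above 0 in shCDK8 and 7 with Senexin B, beside 50.8% and 44.8% of expressed genes.

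Of the genes for SREBP cleavage and the turnover of sterol enzymes, 9 were expressed, 1 was lower by 0.322 or more with Senexin B and 3 were so in shCDK8, none higher. In shCDK8 the lowest were Ubxn8, at 9.11 against 9.73 in pLKO.1 (-0.62), and Erlin2, at 8.38 against 8.95 in pLKO.1 (-0.56). Both encode proteins of the endoplasmic reticulum tied to protein degradation. For Senexin B minus DMSO Ubxn8 was at -0.36 and Vcp, the extracting ATPase, at -0.24.

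The glycerolipid list held Lpin1, a phosphatidate phosphatase, higher by 0.322 or more in both comparisons. It was at 8.75 with Senexin B against 8.16 with DMSO (0.58), and at 8.89 in shCDK8 against 8.42 in pLKO.1 (0.47), with a difference of 0.26 between the control arrays. Its relative Lpin2 was 0.52 higher with Senexin B and 0.14 higher in shCDK8, and Agpat2, an acyltransferase, was at -0.30 in shCDK8. Of 8 expressed genes 2 passed 0.322 with Senexin B and 1 in shCDK8, all higher.

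In the list of fatty acid supply and activation 8 of 11 expressed genes were below 0 with Senexin B, with a median of -0.15. Over all 14272 expressed genes 7865 were below 0. The 1 gene past 0.322, near the share of 8.99%, was Mid1ip1 (-0.44), whose product helps acetyl-CoA carboxylase to polymerize. Mlx was next at -0.320. Against pLKO.1 Mid1ip1 was at -0.18 and Mlx at -0.059. None passed in shCDK8, where Acsl4 (-0.27) and Mcat (-0.24) were the farthest. Between the control arrays 9 of the 11 were below 0, with a median of -0.10, where 7933 of the 14272 expressed genes were below 0. Of 10 expressed oxidation genes 1 passed in each direction with Senexin B, near the shares of 9.21% and 8.99% over all expressed genes. They were Acadvl (0.36) and Acadm (-0.55), both dehydrogenases of fatty acyl-CoA, and Acadm was at -0.36 between the control arrays. In shCDK8 8 of the 10 were above 0 against pLKO.1, with a median of 0.18, where 50.8% of expressed genes were above 0. Against DMSO 7 of the 10 were above 0, with a median of 0.115. Cpt2, a carnitine acyltransferase, was the one past 0.322 against pLKO.1 (0.43), near the share of 8.81%. Ehhadh followed at 0.321 and reached the expression limit in shCDK8 alone. Cpt2 was at 0.17 for shCDK8 against DMSO and at -0.26 for pLKO.1 minus DMSO.

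The remaining elongation and desaturation genes had medians near 0, 0.0042 with Senexin B and 0.037 in shCDK8 over 9 expressed genes. Scd3 was at -0.41 with Senexin B, from a DMSO value at the expression limit, Tecr at 0.21, and in shCDK8 Fads3 was at 0.37 and Hacd3 at 0.16. None of the 4 expressed isoprenoid genes passed 0.322 in either comparison. The farthest were Coq2 (0.16) and Fntb (0.15) with Senexin B and Dhdds (0.25) and Ggps1 (0.21) in shCDK8.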

How the data were processed

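RNA of 4 CT26 cultures was hybridised to Affymetrix Mouse Gene 2.0 ST arrays, 1 per group. The authors deposited log2 levels, 1 per probe set and array, made with RMA and Affymetrix Expression Console, per the submitters' processing notes. No source used here gives versions or says if RMA was run on the 4 arrays jointly. RMA equalizes array distributions, so a shift of all genes is removed, and it compresses differences near background. Signal over background was not used here.

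Of 41345 probe sets 23521 had 1 symbol in the platform annotation, 1814 had several and 16010 had none. Genes were read from the first kind. Differences of log2 values were taken with Python 3.11.15, pandas 2.3.3 and numpy 2.4.6, and counted from 0.322 upward, with no test, beside all expressed genes. The computation was tested on simulated data. The number of arrays limits the precision.

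All 33 genes are named. From each of 7 other lists the 2 farthest expressed genes per comparison are named; others in those lists are given by counts. Fabp4, Krt20, Pdgfra and other single markers were named after their values were seen. So were Abca1 for Senexin B, Lpin2 for shCDK8, Abcg1 for both, and Acadm, Cpt2 and Lpin1 between the controls. Values of Mid1ip1 and Mlx against pLKO.1 and of Cpt2 against DMSO were also added then. The genes, lists and thresholds were chosen with earlier results of these data known. The 10 alternatives, and 1 added later, covered normalization, probe sets, filter, threshold and control array. Promoters came from RefSeq (GRCm38.p6). Trends were removed with statsmodels 0.14.6 (lowess, span 0.3).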

Additional observations from a re-analysis of the deposited data

How the results depend on the processing

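Medians of the cholesterol and of the fatty acid genes, and counts, were recomputed under 10 alternatives and 1 added later. Neither of these medians changed sign. Some medians of smaller groups did with the other control array. For Senexin B the control genes were at 0.027 against DMSO and -0.064 against pLKO.1. In shCDK8 the 4 genes of fatty acid synthesis were at -0.0465 against pLKO.1 and 0.0335 against DMSO. Results moved with the control array, and the cause was not tested. With the other control, the fatty acid median for Senexin B was 0.28 (0.095 against DMSO) and the cholesterol median for shCDK8 was -0.091 (-0.20 against pLKO.1). The same setting gave 0 genes higher by 0.322 or more and 3 lower in shCDK8, where 9.81% and 11.0% of expressed genes were, against 1 and 8 of the genes with pLKO.1. Past the threshold against both controls, chosen after seeing the data, were 4 higher with Senexin B, and 0 higher and 2 lower in shCDK8. At 1.5-fold the counts were 2 higher and 1 lower with Senexin B and 2 lower in shCDK8. At 2-fold they were 0 and 0 with Senexin B and 0 higher and 1 lower in shCDK8. The share of expressed genes past 2-fold was not computed, so these 2-fold counts have nothing to be set against. After repeated quantile normalization, and after removal of the lowess trend, 12 genes were higher by 0.322 or more with Senexin B (8 as deposited), and the cholesterol medians were 0.25 and 0.27. Shares of expressed genes after these steps were not computed. The mean of the fatty acid genes for Senexin B was 0.0083. Of single genes 30 values moved by at least 0.1 with the other control and 2, both of Scap, with the mean of probe sets. No paired analysis was possible because each group had 1 array.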
